A study of Mus musculus with 20 samples.

Results

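Some probe sets of an expression array cannot be assigned to 1 gene, because the platform annotation gives more than 1 gene for them. In a study of mouse eosinophils, 91 of the 20628 probe sets of the deposited table, control probe sets left out, were of this kind, and each was treated here as 1 unit whose signal may come from any of its genes. Probe sets with a gene named Ear plus a number would have been left out; there were 0 of them among the 91. Of the other probe sets, 17826 had 1 gene symbol and 2711 had none in the annotation used.

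The cells were eosinophils, the granulocytes of allergic inflammation, grown from mouse bone marrow and taken on day 12 of culture. The 4 groups of 5 arrays were Dusp5-/- (knockout) cells given 25 ng/ml of the alarm cytokine IL-33 for 4 hours, Dusp5+/+ (wild-type) cells given the same, knockout cells kept in medium alone and wild-type cells kept in medium alone. Each genotype was represented by 5 mice. Arrays of a genotype with the same replicate number, 1 of each treatment, were taken as those of 1 mouse. The construction of the allele and the strain, sex and age of the mice are not given in the labels used here. Dusp5 encodes a nuclear phosphatase that inactivates the kinases ERK1 and ERK2. Its own signal averaged 4.95 ± 0.18 (SD, n = 5) in knockout cells with IL-33, 9.77 ± 0.35 in wild-type cells with IL-33, 4.40 ± 0.31 in untreated knockout cells and 8.15 ± 0.26 in untreated wild-type cells, on the deposited log2 scale. No knockout array overlapped a wild-type array.

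All 8 markers listed for eosinophils lay above the 40th percentile of every array, led by the granule protein genes Prg2 (mean 13.8) and Epx (13.4). So did 7 of 7 measured neutrophil markers, 7 of 7 monocyte and macrophage markers and 4 of 6 mast cell and basophil markers, against 0 of 4 for B and plasma cells, 1 of 3 for T and NK cells and 1 of 3 for erythroid cells. On the log2 scale, the summed signal of the neutrophil markers ran from 11.70 to 12.18 over the knockout IL-33 arrays, from 11.56 to 12.99 over the wild-type IL-33 arrays, from 12.01 to 12.50 over the untreated knockout arrays and from 11.72 to 12.90 over the untreated wild-type arrays. The mast cell and basophil sum ran from 13.29 to 13.35 with IL-33 and 13.48 to 13.64 untreated in knockout cells. In wild-type cells it ran from 13.16 to 13.52 and 13.44 to 13.67. For the eosinophil and the monocyte and macrophage sums, treated and untreated ranges overlapped in both genotypes. In such bulk RNA, fewer cells of a type and less RNA per cell cannot be told apart, and the part of other cell types in the results that follow was not tested. Whether the cultured eosinophils themselves express markers listed for other cell types was not tested either.

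Short array probes read a stretch near the 3' end of a messenger RNA. Several genes share a probe set when their sequences are nearly identical, as with a gene and its processed pseudogenes, copies of messenger RNA written back into the genome, or with members of a young tandem gene family. They also share one when neighbouring genes overlap or read through into each other, or when a small RNA is cut from a longer host transcript. Each of these arrangements occurred here.

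Of the 91 probe sets, 84 listed 2 gene entries, 4 listed 3, and 1 each listed 4, 6 and 13. The 13 were genes of histone H4, the 6 were 4 of the Zscan4 cluster, which is active in the early embryo, with 2 unnamed models on another chromosome, and the 4 were Rpl17 with its copies. Matched to RefSeq genes of the GRCm38.p6 assembly, 184 of the 203 entries were current genes. At least 1 pseudogene was held by 23 probe sets, in 22 of them beside a gene that is none; the exception was Gsdmcl2/Gsdmcl-ps/Gsdmcl1, with pseudogenes alone. Overlapping genes made up 18, separate genes on 1 chromosome another 18 and genes on different chromosomes 3. A gene paired with a small RNA accounted for 10. A further 10 kept fewer than 2 current genes, and 9 listed 1 symbol under several gene numbers. In each of these 19 only 1 entry was a current gene. Whether their probes match a second place in the genome was not tested. Only 9 of the 91 carried the ending _x_at and 4 the ending _s_at, by which the array's maker marks probes that match several transcripts, while 69 ended in plain _at.

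Of the 91 probe sets, 51 (56%) exceeded the array's 40th percentile, 3.56 to 3.68, on at least 5 arrays and were tested, against 62.6% of all probe sets, and 43 did so on all 20 arrays. Of the 40 others, 35 lay below the percentile on every array, and the means of the 40 ran from 1.68 to 3.40. Among the 40 were the histone H4 probe set (2.51), the Ssxb6/Ssxb1 germ-cell genes (2.65) and the protease inhibitor genes Serpina1d/Serpina1a (1.68). The zinc finger genes Zfp64/Gm38422 (2.86) and Zfp781/Gm3055 (2.49) were also among them. The 5 brightest of the untested were D7Ertd143e/Mir295 (3.40), a Hoxd4/Hoxd3 probe set (3.37), E130101E03Rik (3.37), Glrx3/Gm12669 (3.34) and 6430411K18Rik/Mir127 (3.33). At the other end, 10 tested probe sets had a mean above 10, and the ribosomal pair Rpl26/Gm15772 reached 13.52.

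**Figure D1:**
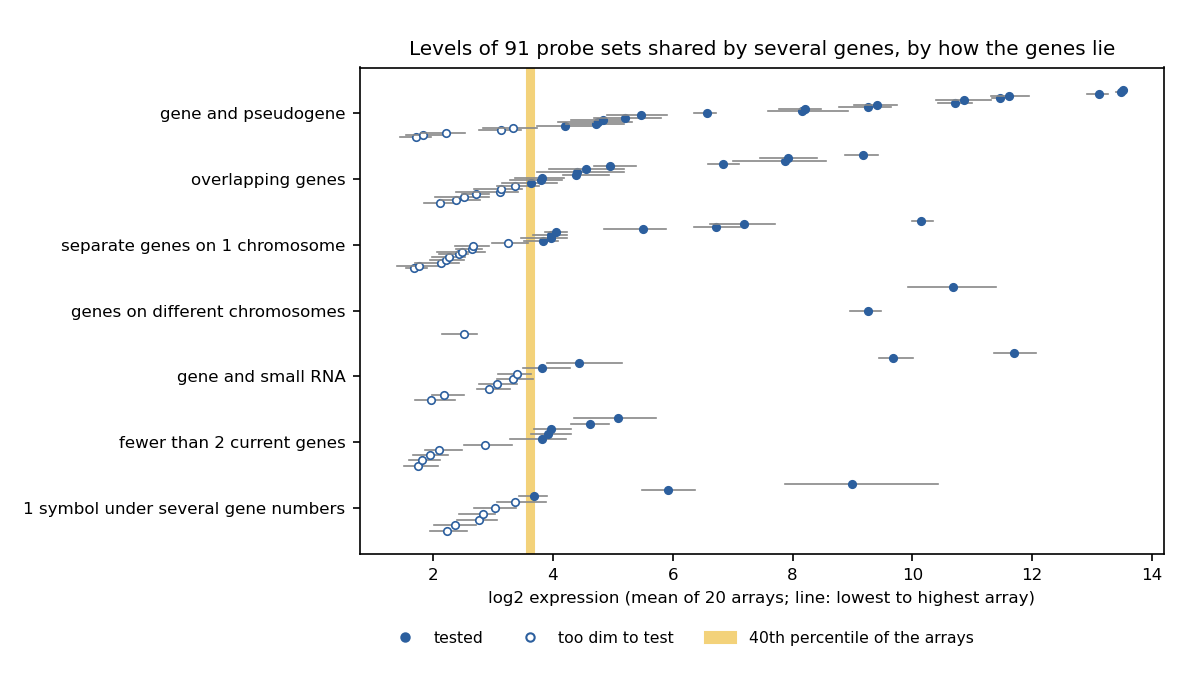
Mean log2 expression over 20 arrays of each of the 91 shared probe sets, grouped by how their genes lie; lines run from the lowest to the highest array, filled points were tested, and the yellow band is the 40th percentile of the arrays. Of the probe sets with a pseudogene 18 of 23 were tested, and of those for separate genes on 1 chromosome 8 of 18; levels of different probe sets depend on their probes as well as on the RNA.

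By kind, 18 of 23 probe sets with a pseudogene were tested, 11 of 18 for overlapping genes, 8 of 18 for separate genes on 1 chromosome, 2 of 3 for genes on different chromosomes and 4 of 10 for a gene with a small RNA. Of those with fewer than 2 current genes 5 of 10 were tested, and of those with 1 symbol under several gene numbers 3 of 9. Housekeeping genes with processed copies, among them Rpl26, Rps23, Ppia, Eef1g and Sumo2, were in the first kind.

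The first comparison asked what IL-33 changes in cells without Dusp5. Of the 51 tested probe sets, 19 (37.3%) had an adjusted p under 0.05 by limma, 6 of them higher and 13 lower with IL-33. Over all 12903 tested probe sets 50.6% passed, 18.8% higher and 31.7% lower. The same comparison in wild-type cells called 17 of the 51 (33.3%), 6 higher and 11 lower, against 41.2% of all, 15.7% higher and 25.5% lower. No test of the difference between the shares of the 51 and of all probe sets was made. The median log2 difference of the 51 was -0.009 in knockout cells and -0.027 in wild-type cells, against -0.062 and -0.042 over all tested probe sets. Of the calls, 15 were made in both genotypes with 1 direction, 4 higher and 11 lower, which is 78.9% of the knockout calls and 88.2% of the wild-type calls. Over all tested probe sets 4821 were called in both with 1 direction, 73.9% of the knockout calls and 90.7% of the wild-type calls. A further 4 were made in knockout cells alone and 2 in wild-type cells alone, and 30 probe sets in neither. These counts come from a fit of 4 group means that leaves out the pairing of arrays by mouse. With the mouse as a fixed or random block more were called, among the 51 and over all. Snhg8/Snora24, called here in knockout cells alone, was then called in both genotypes. All 5 knockout IL-33 arrays lay apart from all 5 untreated ones in 16 of the 51 probe sets (37.2% of all tested), and the wild-type groups lay apart in 12 (27.3% of all tested).

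**Figure D2:**
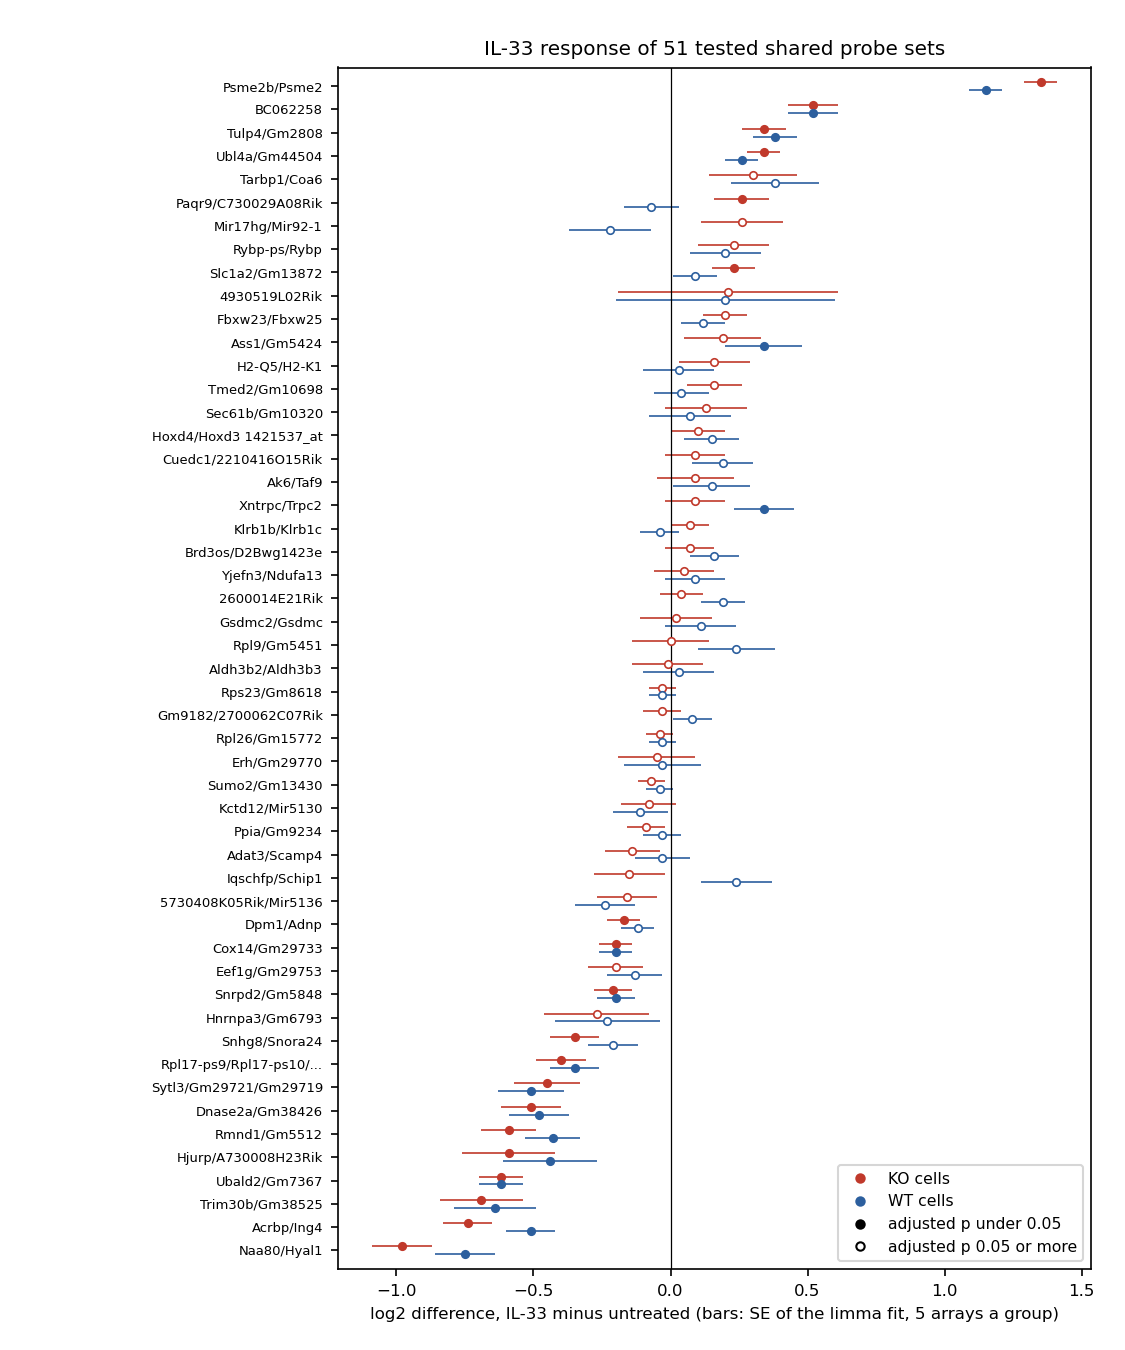
Log2 difference between IL-33 and untreated cells for the 51 tested shared probe sets, in knockout (red) and wild-type cells (blue), with bars of 1 SE of the limma fit and 5 arrays a group; filled points passed an adjusted p of 0.05. Psme2b/Psme2 stands alone at the top, at 1.35 in knockout and 1.15 in wild-type cells, and Naa80/Hyal1 is lowest, at -0.98 and -0.75.

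The largest rise belonged to the proteasome activator. Psme2 encodes the beta subunit of PA28, the ring that caps the proteasome and helps it cut peptides for class I antigen presentation, and Psme2b is annotated as a second protein-coding gene on another chromosome. In knockout cells Psme2b/Psme2 read 11.34, 11.36, 11.37, 11.40 and 11.36 with IL-33, against 10.02, 9.93, 10.09, 9.98 and 10.04 untreated. In wild-type cells it read 11.27, 11.40, 10.99, 11.32 and 11.15 with IL-33, against 10.12, 10.05, 10.04, 10.08 and 10.09 untreated. Every IL-33 array of either genotype was above every untreated array, and the wild-type IL-33 arrays spread the most. The rise was 2.55-fold in knockout cells (log2 difference 1.35 ± 0.06 SE, adjusted p = 1.24e-12) and 2.22-fold in wild-type cells (1.15 ± 0.06, adjusted p = 2.38e-11). It was the 1 shared probe set called at 2-fold or more, among 776 such probe sets (6.01%) of all tested in knockout cells and 537 (4.16%) in wild-type cells, and ranked 248th and 265th from the top of all 12903.

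Of 4 probe sets with 1 gene symbol starting Psme, 2 were called higher and 1 lower in knockout cells, and 2 higher and 0 lower in wild-type cells. Over all tested probe sets 18.8% were higher and 31.7% lower in knockout cells, and 15.7% and 25.5% in wild-type cells. The 1 called lower is not described here. Psme1, Psme3 and Psme4 had smaller differences than the shared probe set. Psme1, the alpha subunit that pairs with Psme2 in the ring, had a log2 difference of -0.05 ± 0.06 (adjusted p = 0.505) in knockout and -0.06 ± 0.06 (adjusted p = 0.43) in wild-type cells. Psme3, the gamma subunit of a separate nuclear activator, rose by 0.39 ± 0.07 in knockout and 0.28 ± 0.07 in wild-type cells. Psme4, a large activator unrelated in sequence, was dimmer, with untreated means of 3.81 in knockout and 3.64 in wild-type cells, and rose by 0.65 ± 0.13 and 0.41 ± 0.13. In limma's fit these rises had adjusted p-values of 9.63e-05 and 0.00273 for Psme3 and 0.000249 and 0.0148 for Psme4. The array could not say which of Psme2 and Psme2b gave the shared signal.

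The bases just before the annotated start of each gene are shown because the 2 genes of this probe set are separate loci with starts of their own. Both sequences come from RefSeq on GRCm38.p6, run 5' to 3' along the gene's own strand and end at the base before the start (for Psme2, 1 of 2 listed starts), and capitals mark the longest run of bases found in both. Psme2 lies on the minus strand of chromosome 14 (chr14:55591102-55591351) and Psme2b on the minus strand of chromosome 11 (chr11:48946411-48946660).
Psme2: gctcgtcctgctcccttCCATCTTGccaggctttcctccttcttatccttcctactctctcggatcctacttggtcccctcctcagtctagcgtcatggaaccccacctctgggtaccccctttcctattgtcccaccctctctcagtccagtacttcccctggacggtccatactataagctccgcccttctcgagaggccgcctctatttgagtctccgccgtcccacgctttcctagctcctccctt
Psme2b: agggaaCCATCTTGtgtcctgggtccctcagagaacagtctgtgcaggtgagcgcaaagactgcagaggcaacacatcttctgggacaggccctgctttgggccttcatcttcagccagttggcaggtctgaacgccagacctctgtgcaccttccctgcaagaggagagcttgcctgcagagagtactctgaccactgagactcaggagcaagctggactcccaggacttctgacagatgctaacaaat
The longest shared run was 8 bases, and in a global alignment 154 of 300 columns (51.3%) were identical. No such values were computed for unrelated windows, so these cannot be read as a likeness of the 2 windows. Neither window, searched on both strands, held the AP-1 motif TGANTCA, found in 6.75% of the 32851 RefSeq windows of the same length. The interferon regulatory factor motif (2.98% of windows) and the NF-kB motif (0.356%) were in neither window either. This says only that these letters are not there.

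The other rises called in both genotypes were those of BC062258, Ubl4a/Gm44504 and Tulp4/Gm2808. BC062258, a noncoding RNA listed under 2 gene numbers, rose by 0.52 ± 0.09 in each genotype (adjusted p = 7.99e-05 in knockout and 0.000118 in wild-type cells). Its values were 6.08, 6.15, 6.09, 6.37 and 6.28 with IL-33 against 5.77, 5.49, 5.94, 5.61 and 5.55 untreated in knockout cells. In wild-type cells they were 6.13, 6.28, 6.01, 6.36 and 6.06 with IL-33 against 5.61, 5.48, 5.68, 5.74 and 5.72 untreated. The groups did not overlap in either genotype. Ubl4a, which helps to guide tail-anchored proteins to membranes, shares a probe set with the overlapping gene Gm44504. It read 9.35, 9.25, 9.43, 9.40 and 9.31 with IL-33 against 9.11, 8.89, 9.12, 8.96 and 8.97 untreated in knockout cells, and 9.36, 9.25, 9.31, 9.28 and 9.30 against 9.04, 8.88, 9.15, 9.06 and 9.07 in wild-type cells. The rise of 0.34 ± 0.06 (adjusted p = 0.000154) in knockout and 0.26 ± 0.06 (adjusted p = 0.00241) in wild-type cells was small but left no array of 1 treatment within the range of the other. Tulp4/Gm2808, a tubby-like gene, rose by 0.34 ± 0.08 and 0.38 ± 0.08, with means of 6.93 ± 0.12 with IL-33 and 6.58 ± 0.11 untreated in knockout cells and 6.89 ± 0.11 with IL-33 and 6.52 ± 0.10 untreated in wild-type cells (SD, n = 5). Its adjusted p-values were 0.000913 and 0.000523. Of its relatives with probe sets of their own, Tulp3 fell by 0.54 ± 0.21 and 0.65 ± 0.21 (limma adjusted p = 0.0394 and 0.0182), and Tulp1 was not called.

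Rises called in 1 genotype alone had adjusted p-values of 0.0202 to 0.0472. Paqr9/C730029A08Rik, of a family of membrane progestin and adiponectin receptors, read 3.88, 3.88, 4.31, 3.94 and 3.99 with IL-33 against 3.81, 3.75, 3.86, 3.63 and 3.65 untreated in knockout cells. Its log2 difference of 0.26 ± 0.10 (adjusted p = 0.0287) became 0.18 (adjusted p = 0.101) without the IL-33 array of replicate 3, the highest of its group, and had an adjusted p of 0.0691 and 0.0662 without the untreated arrays of replicates 4 and 5. The glutamate transporter probe set Slc1a2/Gm13872 rose by 0.23 ± 0.08 (adjusted p = 0.0265) in knockout cells and by 0.18 (adjusted p = 0.0832) without the untreated array of replicate 3. Its adjusted p was 0.0548 without the untreated array of replicate 1, and 0.0681 and 0.057 without the IL-33 arrays of replicates 2 and 5. In wild-type cells the arginine-synthesis enzyme Ass1, with its pseudogene Gm5424, rose by 0.34 ± 0.14 (adjusted p = 0.0472). That call was kept in 20 of 38 alternative settings. It was lost without any 1 of the untreated wild-type arrays of replicates 2, 3, 4 and 5 (adjusted p up to 0.122) or the IL-33 wild-type arrays of replicates 1, 3 and 4 (up to 0.106), and without 1 of 5 knockout arrays, which enter through the shared spread (0.0525 to 0.0546). Xntrpc/Trpc2, a cation channel of the mouse vomeronasal organ, averaged 3.78 ± 0.19 with IL-33 against 3.43 ± 0.23 untreated in wild-type cells (SD, n = 5), the second value under the percentile used as a floor. Its rise was therefore at least 1.12-fold (log2 difference 0.34 ± 0.11, adjusted p = 0.0202), and it was 0.27 (adjusted p = 0.067) without the IL-33 array of replicate 5 and 0.27 (adjusted p = 0.0622) without the untreated array of replicate 2. Each of these 4 calls was kept with the mouse as a fixed or random block. The adjusted p-values were 0.00743 and 0.00381 for Paqr9, 0.00883 and 0.00379 for Slc1a2, 0.00606 and 0.00561 for Ass1, and 0.0132 and 0.00372 for Xntrpc/Trpc2. In the other genotype the log2 differences were -0.07 for Paqr9, 0.09 for Slc1a2, 0.19 for Ass1 and 0.09 for Xntrpc/Trpc2, and the difference between genotypes passed for none of the 4 (adjusted p of the interaction 0.945 to 0.999).

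Falls were more frequent. The deepest was that of Naa80/Hyal1, 2 overlapping genes of different function. Naa80 is the acetyltransferase of the actin N terminus, and Hyal1 is a lysosomal enzyme that degrades hyaluronan. The probe set read 7.42, 7.30, 7.00, 7.13 and 7.34 with IL-33 against 8.50, 8.08, 8.25, 8.04 and 8.22 untreated in knockout cells. In wild-type cells it read 7.64, 7.28, 7.79, 7.68 and 7.80 with IL-33 against 8.26, 8.14, 8.53, 8.46 and 8.56 untreated. Treated and untreated arrays did not overlap in either genotype, and the knockout IL-33 arrays were the lowest group. The log2 difference was -0.98 ± 0.11 in knockout cells (1.97-fold, adjusted p = 5.8e-07) and -0.75 ± 0.11 in wild-type cells (1.68-fold, adjusted p = 2.53e-05), the 403rd and 544th from the bottom of all tested probe sets.

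Acrbp/Ing4 joins a sperm acrosome protein and a chromatin reader of histone acetyltransferase complexes, which are neighbours on chromosome 6. It read 6.76, 6.92, 6.62, 6.85 and 6.84 with IL-33 against 7.61, 7.61, 7.34, 7.59 and 7.56 untreated in knockout cells, and 6.96, 7.06, 6.78, 6.98 and 7.03 against 7.32, 7.70, 7.23, 7.65 and 7.43 in wild-type cells. Again no array overlapped the other treatment, and replicate 3 was the lowest of all 4 groups. The fall was 0.74 ± 0.09 on the log2 scale in knockout cells (adjusted p = 1.09e-06) and 0.51 ± 0.09 in wild-type cells (adjusted p = 0.000155). Ubald2/Gm7367, a gene named for its UBA-like domain with a transcribed pseudogene, read 10.64, 10.55, 10.47, 10.72 and 10.45 with IL-33 against 11.31, 11.10, 11.27, 11.22 and 11.02 untreated in knockout cells, and 10.40, 10.39, 10.51, 10.65 and 10.68 against 11.10, 11.02, 11.18, 11.23 and 11.22 in wild-type cells. Its groups did not overlap either, and the log2 difference was -0.62 ± 0.08 in both genotypes (adjusted p = 1.79e-06 in knockout and 2.31e-06 in wild-type cells). The related gene Ubald1, read by its own probe set, fell by 0.51 ± 0.09 and 0.41 ± 0.09 (limma adjusted p = 5.65e-05 and 0.000764).

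**Figure D3:**
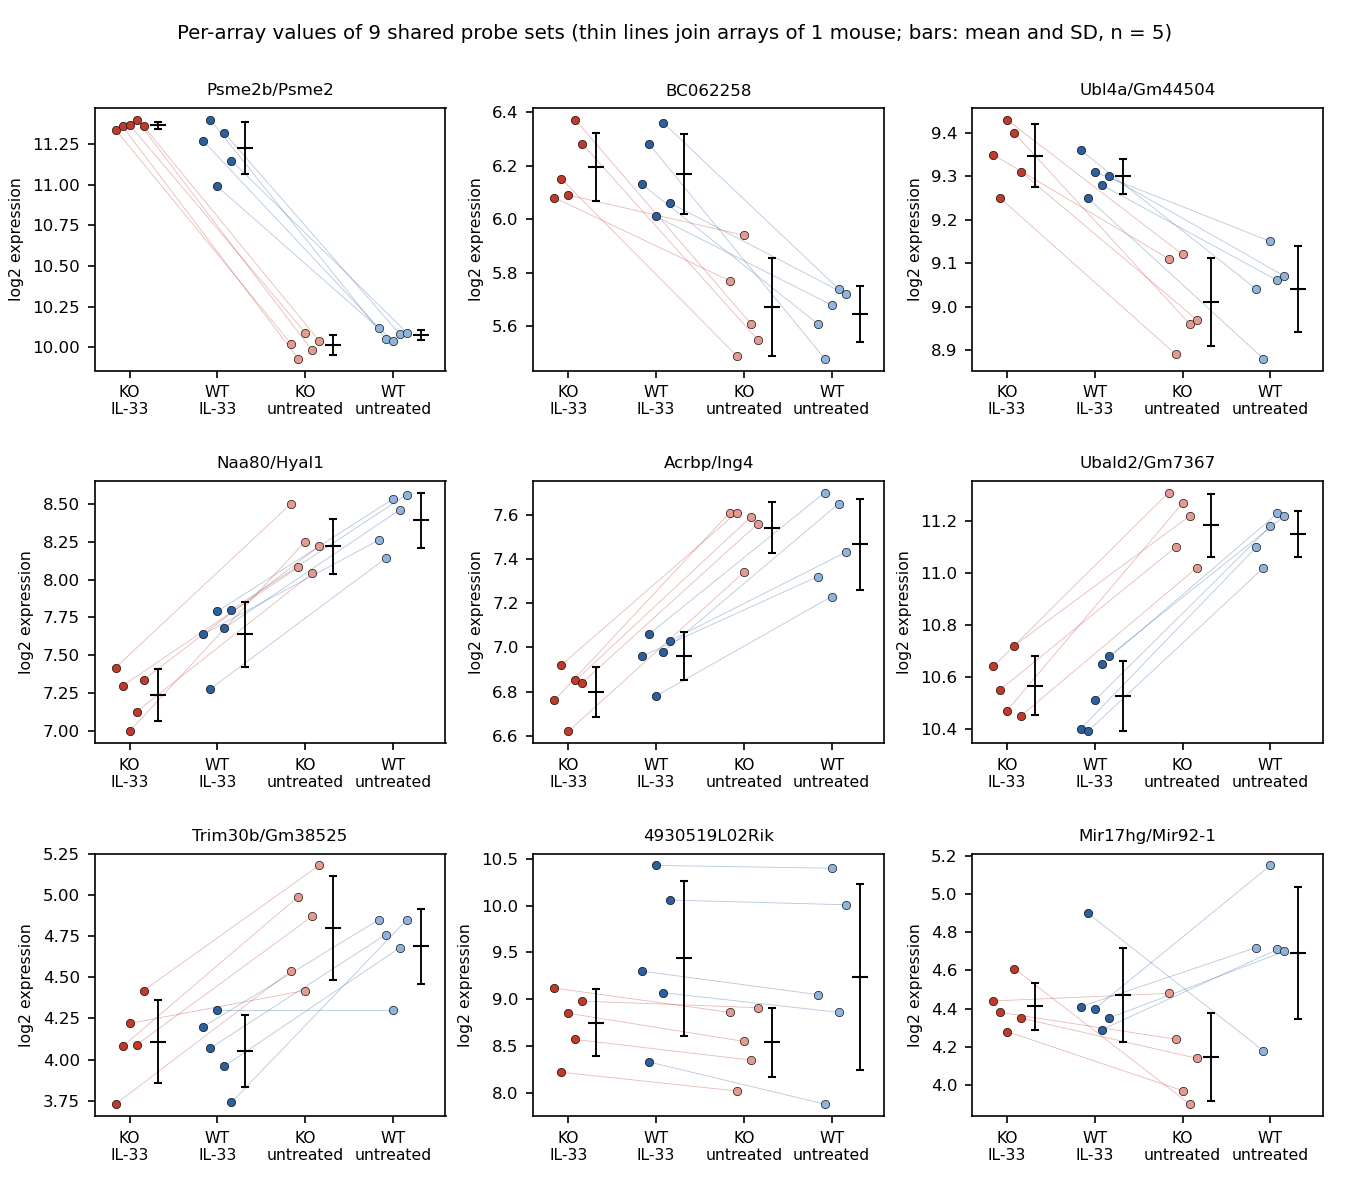
Log2 expression of 9 shared probe sets on every array, in the order knockout with IL-33, wild type with IL-33, knockout untreated and wild type untreated. Thin lines join the 2 arrays taken as those of a mouse, and bars give the mean and SD of 5 arrays (each panel has its own axis). Psme2b/Psme2, BC062258 and Ubl4a/Gm44504 are higher and Naa80/Hyal1, Acrbp/Ing4 and Ubald2/Gm7367 lower on every IL-33 array, whereas 4930519L02Rik differs mainly between mice.

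The 1 shared probe set in the group of cytokine and interferon genes fell. Trim30b, a gene of the Trim30 cluster of TRIM ubiquitin ligases in the mouse, overlaps Gm38525. It read 3.73, 4.08, 4.22, 4.09 and 4.42 with IL-33 against 4.54, 4.99, 4.42, 4.87 and 5.18 untreated in knockout cells, and 4.20, 4.07, 4.30, 3.96 and 3.74 against 4.85, 4.76, 4.30, 4.68 and 4.85 in wild-type cells. The ranges met at 1 value in each genotype, at the untreated array of replicate 3. The log2 differences were -0.69 ± 0.15 (adjusted p = 0.000807) and -0.64 ± 0.15 (adjusted p = 0.00218). The other immune probe sets were dim and were not called. A level depends on the probes as well as on the RNA, so a dim probe set need not mean little RNA of its genes. H2-Q5/H2-K1, a class I histocompatibility gene with a transcribed pseudogene of its family, averaged 4.36 ± 0.25 with IL-33 and 4.20 ± 0.15 untreated in knockout cells, and 4.16 ± 0.16 and 4.13 ± 0.26 in wild-type cells (SD, n = 5). Klrb1b/Klrb1c, C-type lectin receptors known from NK cells, ran from 3.87 to 4.23 over all 20 arrays, with log2 differences of 0.07 ± 0.07 and -0.04 ± 0.07. A separate probe set for Klrb1b alone averaged 5.28 ± 0.65 with IL-33 against 4.19 ± 0.35 untreated in knockout cells and 4.97 ± 0.24 against 3.82 ± 0.38 in wild-type cells. It rose by 1.10 ± 0.25 (adjusted p = 0.000998) and 1.15 ± 0.25 (adjusted p = 0.000898), so the 2 probe sets that name Klrb1b gave different readings.

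Dnase2a/Gm38426, Sytl3/Gm29721/Gm29719, Rmnd1/Gm5512 and Cox14/Gm29733 also fell in both genotypes. Dnase2a, the lysosomal DNase that clears DNA of engulfed cells, shares a probe set with the noncoding gene Gm38426 and averaged 5.28 ± 0.23 with IL-33 against 5.80 ± 0.10 untreated in knockout cells, and 5.24 ± 0.22 against 5.72 ± 0.08 in wild-type cells (SD, n = 5). The differences of -0.51 ± 0.11 and -0.48 ± 0.11 passed in both (adjusted p = 0.000451 and 0.00123). Sytl3/Gm29721/Gm29719, a synaptotagmin-like effector of the secretory GTPase Rab27, fell by 0.45 ± 0.12 in knockout and 0.51 ± 0.12 in wild-type cells, lower with IL-33 in all 5 mice of each genotype although the groups overlapped. Sytl1, a relative with its own probe set, fell by 1.16 ± 0.16 and 0.99 ± 0.16 (limma adjusted p = 7.08e-06 and 6.78e-05), while Sytl4 had differences of -0.25 ± 0.20 and -0.16 ± 0.20 that did not pass. Rmnd1/Gm5512, a factor of mitochondrial translation with a transcribed pseudogene, fell by 0.59 ± 0.10 and 0.43 ± 0.10 (adjusted p = 5.59e-05 and 0.00165). Cox14/Gm29733, which names an assembly factor of cytochrome c oxidase, fell by 0.20 ± 0.06 in each genotype (adjusted p = 0.00657 and 0.00864).

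Hjurp and Snrpd2 fell in both genotypes, and Dpm1/Adnp in knockout cells. Hjurp, the chaperone that places the centromeric histone CENP-A, fell by 0.59 ± 0.17 (adjusted p = 0.00533) in knockout cells, with values of 4.91, 4.44, 4.65, 4.65 and 4.53 with IL-33 against 5.50, 5.00, 5.12, 5.11 and 5.42 untreated. In wild-type cells its fall of 0.44 ± 0.17 (adjusted p = 0.038) rested on 5.09, 4.35, 5.27, 5.00 and 5.40 with IL-33 against 5.51, 5.11, 5.71, 5.27 and 5.72 untreated. The knockout groups did not overlap and the wild-type groups did, and the wild-type call was kept in 27 of 38 alternative settings. The wild-type fall passed with the mouse as a fixed or random block (adjusted p = 0.000366 and 0.00203). Its difference was -0.27 (adjusted p = 0.127) without the IL-33 array of replicate 2 and had an adjusted p of 0.0649 without that of replicate 4. Without the untreated arrays of replicates 1, 3 and 5 the adjusted p was 0.0676, 0.0946 and 0.0989. Snrpd2/Gm5848, a core protein of spliceosomal particles, fell by 0.21 ± 0.07 (adjusted p = 0.0207) and 0.20 ± 0.07 (adjusted p = 0.037), in all 5 mice of each genotype. In knockout cells the call was lost without the untreated array of replicate 1 or 3 or the IL-33 array of replicate 2, 4 or 5 (adjusted p 0.0514 to 0.058). In wild-type cells it was lost without the untreated array of replicate 1 or 3 or the IL-33 array of replicate 2 or 5 (0.0684 to 0.0974). There it was also lost without both arrays of any 1 wild-type mouse (0.0568 to 0.0979). Without a filter on dim probe sets the wild-type adjusted p was 0.0602. Leaving out both arrays of knockout mouse 4 or 5 lost the knockout call (0.0723 and 0.0624). With the mouse as a fixed or random block the call was kept in knockout cells (adjusted p = 0.00175 and 0.00141) and in wild-type cells (0.00347 and 0.00318). Snrpd3, another core protein with its own probe set, rose by 0.40 ± 0.13 and 0.47 ± 0.13 (limma adjusted p = 0.0155 and 0.00654). Dpm1/Adnp, a dolichol-phosphate mannose synthase subunit and a chromatin-binding homeobox protein, fell by 0.17 ± 0.06 (adjusted p = 0.0198) in knockout cells and by 0.15 (adjusted p = 0.0529) without the IL-33 array of replicate 2. Dpm1/Adnp passed there with the mouse as a fixed or random block (adjusted p = 0.00938 and 0.00275). Its wild-type difference of -0.12 ± 0.06 did not pass (adjusted p = 0.0994), although all 5 wild-type mice were lower; with the mouse as a random block it passed (adjusted p = 0.0272), and with it as a fixed block it did not (0.0514).

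Of 5 tested probe sets for ribosomal and translation genes, 1 was called in each genotype, against 50.6% of all tested in knockout and 41.2% in wild-type cells. Rpl17, a protein of the large ribosomal subunit read together with 3 copies, averaged 8.99 ± 0.15 with IL-33 against 9.39 ± 0.13 untreated in knockout cells and 9.16 ± 0.13 against 9.51 ± 0.13 in wild-type cells (SD, n = 5). The groups did not overlap, and the falls of 0.40 ± 0.09 and 0.35 ± 0.09 passed (adjusted p = 0.000735 and 0.0033). Rps23/Gm8618 stayed between 13.40 and 13.54 on all 20 arrays and Rpl26/Gm15772 between 13.49 and 13.59. Both lie near the highest value of the table, 13.99. Their differences with IL-33 were -0.03 and -0.04 in knockout and -0.03 and -0.03 in wild-type cells, each with an SE of 0.05. Rpl9/Gm5451 was dim, at a mean of 3.81 over all arrays, and had differences of 0.00 ± 0.14 and 0.24 ± 0.14. For it and the dim probe sets below, too, the level depends on the probes as well as on the RNA. Eef1g/Gm29753, a subunit of translation elongation factor 1, was lower with IL-33 in all 5 mice of each genotype, by 0.10 to 0.26 in knockout and 0.02 to 0.22 in wild-type mice. Its differences of -0.20 ± 0.10 and -0.13 ± 0.10 did not pass (adjusted p = 0.106 and 0.345), but both did with the mouse as a fixed block (adjusted p = 0.00219 and 0.0363). With it as a random block the knockout value passed (0.0135) and the wild-type value did not (0.123). Of 17 ribosomal protein probe sets named Rpl with 1 gene symbol, 1 was higher and 3 lower in knockout cells and 1 higher and 1 lower in wild-type cells, against the shares over all probe sets given above. The folding enzyme probe set Ppia/Gm9234 and the ubiquitin-like modifier Sumo2/Gm13430 had differences of -0.09 ± 0.07 and -0.07 ± 0.05 in knockout cells and -0.03 ± 0.07 and -0.04 ± 0.05 in wild-type cells, with no call. The respiratory chain subunit gene of Yjefn3/Ndufa13 and the aldehyde dehydrogenase pair Aldh3b2/Aldh3b3 were dim, at means of 3.97 and 3.82 over all arrays, and had differences of 0.05 ± 0.11 and -0.01 ± 0.13 in knockout and 0.09 ± 0.11 and 0.03 ± 0.13 in wild-type cells. The unnamed models Gm9182/2700062C07Rik had differences of -0.03 ± 0.07 and 0.08 ± 0.07. The noncoding RNA 2600014E21Rik differed by 0.04 ± 0.08 in knockout and 0.19 ± 0.08 in wild-type cells (adjusted p = 0.0844), and with the mouse as a fixed or random block the second value passed (adjusted p = 0.0236 and 0.017).

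Of the probe sets, 10 pair a host transcript with a small RNA that is cut from it or lies within it, and 4 were bright enough to test. Snhg8/Snora24, a noncoding host gene whose intron carries a small nucleolar RNA, read 11.54, 11.40, 11.59, 11.60 and 11.36 with IL-33 against 11.97, 11.72, 12.07, 11.82 and 11.64 untreated in knockout cells, and 11.75, 11.54, 11.55, 11.78 and 11.46 against 11.90, 11.70, 11.79, 11.99 and 11.76 in wild-type cells. The knockout groups did not overlap and the wild-type groups did, although all 5 mice of each genotype were lower with IL-33. The fall of 0.35 ± 0.09 passed in knockout cells (adjusted p = 0.00291). In wild-type cells that of 0.21 ± 0.09 missed the threshold (adjusted p = 0.0649), but passed with the mouse as a fixed or random block (adjusted p = 0.00363 and 0.0066). Among 11 other host genes of this kind with their own probe sets, 2 were higher and 7 lower in knockout cells, and 0 higher and 5 lower in wild-type cells. Over all tested probe sets 18.8% were higher and 31.7% lower in knockout cells, and 15.7% and 25.5% in wild-type cells. Snhg4 fell by 0.88 ± 0.15 and 0.71 ± 0.15, and Snhg1 by 0.76 ± 0.12 and 0.77 ± 0.12 (limma adjusted p of Snhg4 = 8.63e-05 and 0.00102, of Snhg1 = 2.62e-05 and 3.2e-05).

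The other 3 hosts carry microRNA genes, whose mature sequences are shown to identify the small RNAs that share these probe sets. The array reads the host and not the mature microRNA. Sequences are from RefSeq (GRCm38.p6), 5' to 3', with the seed, bases 2 to 8, in capitals.
miR-92a-1-5p: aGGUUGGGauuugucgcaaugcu
miR-92a-3p: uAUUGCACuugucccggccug
miR-5130: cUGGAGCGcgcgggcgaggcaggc
miR-5136: aUAUGCGAgggaacuacugg
The first pair come from the 2 arms of Mir92-1 (chr14:115044437-115044459 and chr14:115044476-115044496, plus strand), the last of a cluster of microRNAs cut from Mir17hg. The third overlaps Kctd12 (chr14:102982608-102982631, minus strand) and the fourth lies in the noncoding RNA 5730408K05Rik (chr19:8888709-8888728, minus strand). No 2 of the 4 seeds were the same. Kctd12, an auxiliary subunit of GABA-B receptors, was bright, at 9.73 ± 0.15 with IL-33 and 9.81 ± 0.19 untreated in knockout cells and 9.54 ± 0.08 and 9.64 ± 0.18 in wild-type cells (SD, n = 5), and was not called. 5730408K05Rik/Mir5136 had log2 differences of -0.16 ± 0.11 and -0.24 ± 0.11. The wild-type value did not pass (adjusted p = 0.082), but did with the mouse as a fixed or random block (adjusted p = 0.0219 and 0.0164).

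Mir17hg/Mir92-1 went in different directions in the genotypes without a call. It read 4.44, 4.38, 4.28, 4.61 and 4.35 with IL-33 against 4.48, 4.24, 3.97, 3.90 and 4.14 untreated in knockout cells, and 4.41, 4.90, 4.40, 4.29 and 4.35 against 4.72, 4.18, 5.15, 4.71 and 4.70 in wild-type cells. It was higher with IL-33 in 4 of 5 knockout mice and lower in 4 of 5 wild-type mice, the exception in wild type being mouse 2. The interaction, 0.49 ± 0.21, did not pass (adjusted p = 0.962), and the untreated knockout cells were 0.54 ± 0.15 below the untreated wild-type cells (adjusted p = 0.386). Without both arrays of wild-type mouse 2, the untreated difference was -0.67 (adjusted p = 0.0275) and the wild-type response -0.46 (adjusted p = 0.00544). Without its untreated array alone the wild-type response was -0.35 (adjusted p = 0.0424). The knockout response of 0.26 had an adjusted p of 0.045 without that mouse.

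The widest spread between mice was that of 4930519L02Rik, a protein-coding gene without a described role here. It read 9.12, 8.22, 8.85, 8.57 and 8.98 with IL-33 against 8.86, 8.02, 8.55, 8.35 and 8.91 untreated in knockout cells, and 9.30, 8.33, 10.43, 9.07 and 10.06 against 9.05, 7.88, 10.40, 8.86 and 10.01 in wild-type cells. The 2 arrays of a mouse lay close together while mice differed more, with wild-type mice 3 and 5 the highest and wild-type mouse 2 the lowest when untreated. All 10 mice were higher with IL-33, by 0.02 to 0.45. Without a block the differences were 0.21 ± 0.40 and 0.20 ± 0.40 with no call, and with the mouse as a fixed block 0.21 ± 0.06 (adjusted p = 0.012) in knockout and 0.20 ± 0.06 (adjusted p = 0.0196) in wild-type cells. With the mouse as a random block neither passed (adjusted p = 0.469 and 0.518).

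The second question was what the loss of Dusp5 changes. None of the 51 shared probe sets passed between knockout and wild-type cells, either with IL-33 (0 of 51, against 2.12% of all tested, 1.04% higher and 1.09% lower) or untreated (0 of 51, against 0.0233%, or 3 probe sets, 0.0155% higher and 0.00775% lower). The interaction gave 0 calls among the 51 and 0% over the whole table. At an unadjusted p under 0.05 in limma, 6 of the 51 differed with IL-33, 2 untreated and 4 in the interaction, against 3052, 1658 and 609 of all 12903. In 0 of the 51 did the 5 knockout arrays lie apart from the 5 wild-type arrays, with IL-33 (3.25% of all tested) or without (1.19%).

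**Figure D4:**
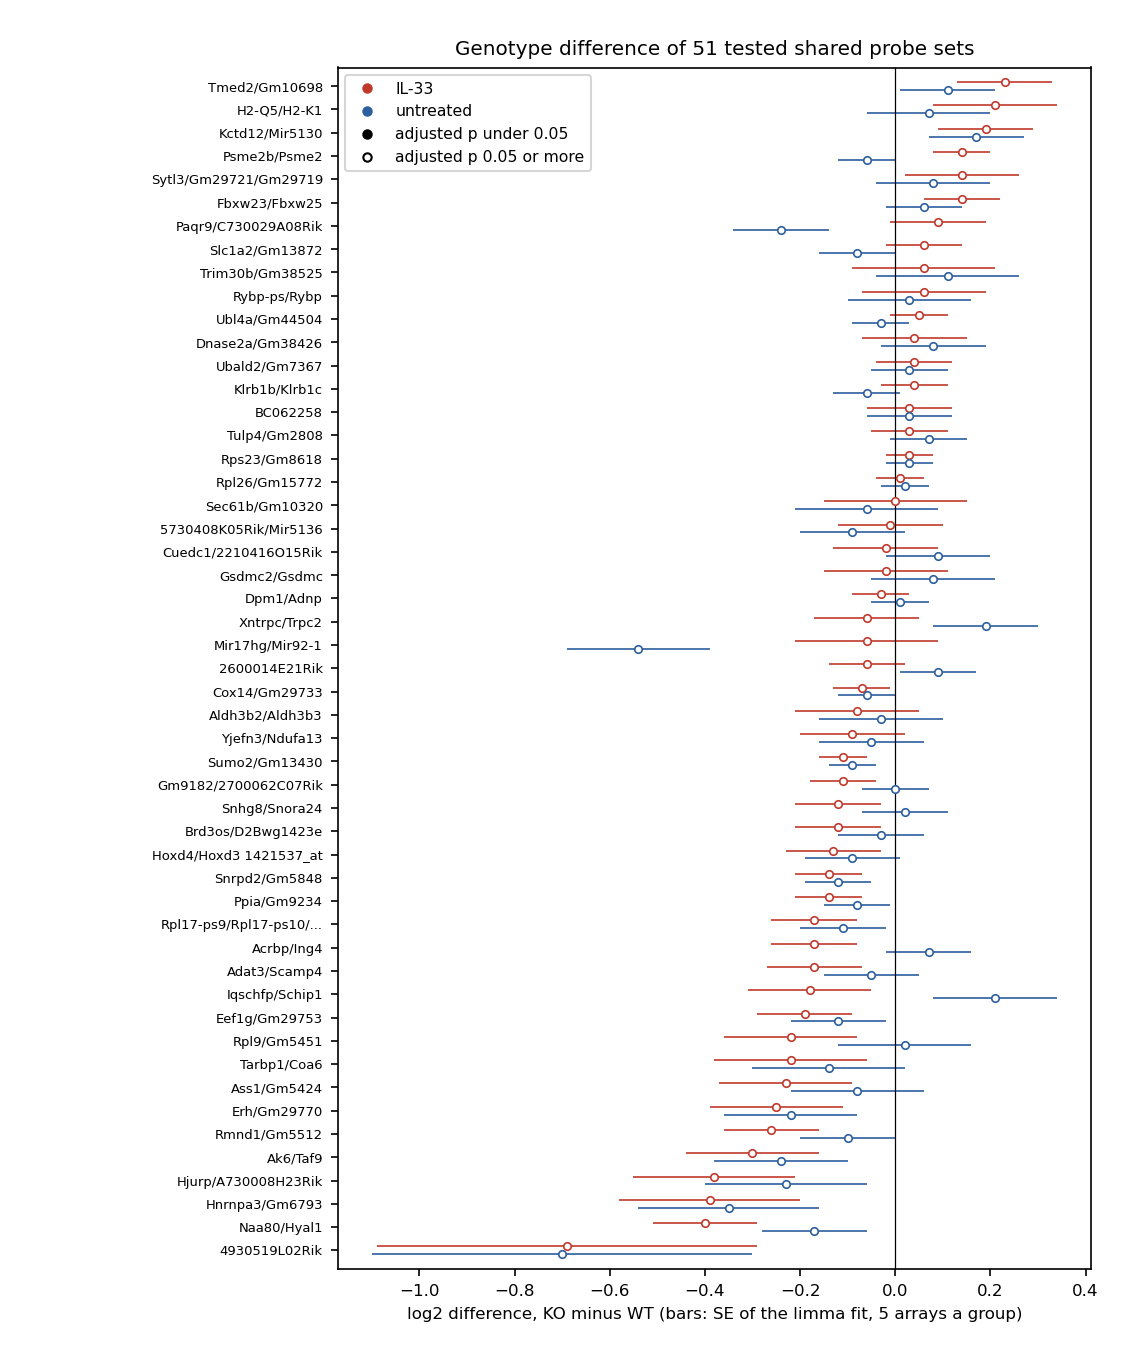
Log2 difference between knockout and wild-type cells for the 51 tested shared probe sets, with IL-33 (red) and untreated (blue), with bars of 1 SE of the limma fit and 5 arrays a group; open points did not pass an adjusted p of 0.05. No point is filled, and the widest bars, those of 4930519L02Rik, go with the largest differences, -0.69 with IL-33 and -0.70 untreated.

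Naa80/Hyal1 came nearest to a genotype call. It averaged 7.24 ± 0.17 in knockout and 7.64 ± 0.21 in wild-type cells with IL-33 (SD, n = 5), and 8.22 ± 0.18 and 8.39 ± 0.18 untreated. The difference with IL-33 was -0.40 ± 0.11 (adjusted p = 0.0653). The 1 wild-type array within the knockout range was that of replicate 2, at 7.28, and without it the difference was -0.49 (adjusted p = 0.0118). That array was the lowest of its group, so leaving it out could only widen the difference. With a filter at the 60th percentile the difference passed (adjusted p = 0.0468), as with the mouse as a random block (adjusted p = 0.0453). It passed without the knockout IL-33 array of replicate 1 (-0.45, adjusted p = 0.0338) or both arrays of that mouse (-0.45, adjusted p = 0.0279). Apart from these and the fit without wild-type mouse 2 given below, no alternative setting called it. Psme2b/Psme2 was 0.14 ± 0.06 higher in knockout cells with IL-33 (adjusted p = 0.196) and its response was 0.20 ± 0.09 larger there (interaction, adjusted p = 0.999). Hjurp was 0.38 ± 0.17 lower and Rmnd1/Gm5512 0.26 ± 0.10 lower in knockout cells with IL-33, and Tmed2/Gm10698, a cargo receptor of early secretory vesicles, 0.23 ± 0.10 higher, none of them called (adjusted p = 0.169, 0.128 and 0.177). Without both arrays of wild-type mouse 2, 5 probe sets passed as lower in knockout cells with IL-33. These were Naa80/Hyal1 (-0.49, adjusted p = 0.00677), Hjurp/A730008H23Rik (-0.55, 0.00932), Hnrnpa3/Gm6793 (-0.52, 0.0268), 4930519L02Rik (-0.97, 0.0421) and Ak6/Taf9 (-0.39, 0.0475). Hjurp also passed without the IL-33 array of that mouse alone (-0.55, adjusted p = 0.0185). The share of all probe sets called in these leave-out fits was not computed, so the 5 cannot be set against it. The neutrophil marker sum of the wild-type arrays spanned more than that of the knockout arrays in both treatments (11.56 to 12.99 against 11.70 to 12.18 with IL-33), and its part in these differences was not tested.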

How the data were processed

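Expression was measured on 20 one-colour Affymetrix mouse 3' expression arrays, 1 per culture, prepared with a 3' IVT Express kit per the labels' protocols. The authors deposited 1 table of 20630 probe sets, 2 of them controls, whose values (1.27 to 13.99) are those of a log2 scale. The sources used here do not give the background correction, the summarization, the normalization or how probe sets were chosen. The log2 unit was read from the values. Precision is limited by how many arrays there are.

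Genes came from the platform annotation, updated through RefSeq (GRCm38.p6). Probe sets above the array's 40th percentile on at least 5 arrays (12903) entered 1 limma 3.58.1 fit (R 4.3.3) of 4 group means with 16 residual degrees of freedom. Benjamini-Hochberg adjustment ran over all of them for each comparison. The table was used without further normalization, and the tests were tested on simulated data. The comparisons between genotypes use the same arrays as the comparisons between treatments. Groups were taken from the labelled genotype and treatment; the titles of the IL-33 samples carry the word Dusp5 in place of the treatment, so for these the treatment label alone names IL-33. The members, gene lists and marker lists were chosen with earlier results of these data known. The text names every shared probe set called between genotypes, the 12 largest called rises and falls with IL-33, the tested immune ones, the 3 of highest mean in each other role group, and the 5 brightest untested.

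Each genotype had 5 mice according to the series design, and arrays of the same genotype and number deviated together from their group means (r 0.232 to 0.771, each of 10 closest to its own number), so the numbers were taken as mice. The alternatives were the mouse as a fixed or random block, other filters, further quantile normalization, fits of 2 groups, a mean-variance trend, other probe set choices, and leaving out each array or mouse. Protein sequences were not analysed here.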

Additional observations from a re-analysis of the deposited data

Results flagged for a closer look

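In 11 of 204 groups of 5 arrays, over the 51 tested shared probe sets, 1 array stood far from the other 4 of its group. Chance alone gives about 1 such group in 20. No explanation was tested for any of them, and values are on the log2 scale.

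Among the probe sets called with IL-33, the array of replicate 3 of untreated knockout cells was low for Acrbp/Ing4, at 7.34 against 7.56 to 7.61. The wild-type IL-33 array of replicate 3 was high for Tulp4/Gm2808, at 7.09 against 6.81 to 6.87. For Paqr9/C730029A08Rik the knockout IL-33 array of replicate 3 was high, at 4.31 against 3.88 to 3.99.

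Knockout replicate 3 and wild-type replicate 2 each appeared 3 times. The former did so with Acrbp/Ing4 and Paqr9/C730029A08Rik above and Rpl9/Gm5451 below. For wild-type replicate 2, the IL-33 array was high for Mir17hg/Mir92-1, at 4.90 against 4.29 to 4.41, and for Rpl26/Gm15772, at 13.55 against 13.49 to 13.50. Its untreated array was low for Ak6/Taf9, at 7.58 against 8.05 to 8.15.

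The remaining 5 were in probe sets with no call. Tmed2/Gm10698 had 8.12 on the knockout IL-33 array of replicate 5 against 8.41 to 8.48. Sec61b/Gm10320, a subunit of the protein channel of the endoplasmic reticulum, had 5.02 on that of replicate 4 against 5.27 to 5.34. A Hoxd4/Hoxd3 probe set had 4.94 on the wild-type IL-33 array of replicate 1 against 4.39 to 4.49. Rpl9/Gm5451 had 3.29 on the untreated knockout array of replicate 3 against 3.82 to 4.00. Gsdmc2/Gsdmc, gasdermin genes, had 3.47 on the untreated wild-type array of replicate 5 against 3.94 to 4.13.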

How the results depend on the processing

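Counts are of shared probe sets called by limma at an adjusted p of 0.05. With the mouse as a fixed block, IL-33 gave 7 higher and 16 lower in knockout cells and 9 higher and 15 lower in wild-type cells; with it as a random block, 9 and 14 in knockout cells and 8 and 14 in wild-type cells, and 1 was lower in knockout than in wild-type cells with IL-33 (Naa80/Hyal1). That probe set was also the 1 lower with a filter at the 60th percentile. Of all tested probe sets the fixed block called 23.2% higher and 40% lower in knockout and 20.3% and 35.3% in wild-type cells, and the random block 24.8% and 38.7% in knockout and 21.2% and 33.5% in wild-type cells, with 2.29% lower in knockout than in wild-type cells with IL-33. Calls gained with the fixed block and not given above were Hnrnpa3/Gm6793 in both genotypes (adjusted p = 0.00146 and 0.00518), Adat3/Scamp4 in knockout cells (0.0361), and Tarbp1/Coa6 in wild-type cells (0.0234). The calls higher with IL-33 were 3 in knockout cells when only probe sets with 2 or more current genes were kept, since fewer were tested, and 10 in wild-type cells without a filter on dim probe sets, since more were tested. Leaving out each array or mouse gave 4 to 8 higher and 11 to 13 lower in knockout cells, 4 to 7 and 9 to 13 in wild-type cells, 0 to 5 lower in knockout than in wild-type cells with IL-33 and 0 to 1 untreated. Shares over all tested probe sets were computed for the main and block fits alone. The counts of the other settings therefore cannot be set against such a share. Over 255 results of single shared probe sets no called direction reversed, 67 values gained a call (38 of them by leaving out arrays) and 67 lost one (63 of them by leaving out arrays), while 9293 stayed on their side of the threshold. Where not named, the cause of a change was not tested. Signal over background limits the 40 untested probe sets.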
